A study of Homo sapiens with 5 samples.

Results

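The WNT7B and let-7b host gene locus is a stretch of 250 kb on human chromosome 22, from 46300000 to 46550000 in build hg19. Its members are the peak intervals that overlap this stretch in the 4 deposited peak lists, 77 intervals out of 363159 on the autosomes and chromosome X. H3K27ac replicates 1 and 2 hold 25 and 21 of them, and H3K4me1 replicates 1 and 2 hold 11 and 20. The stretch was chosen from measured values, since its wide H3K27ac and sparse H3K4me1 were known when it was picked. All values below therefore describe the locus, and no test is given for them.

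The lists come from chromatin immunoprecipitation with sequencing (ChIP-seq) on VCaP, an established human prostate cancer cell line that carries an androgen receptor and responds to androgen. Chromatin of the same line was precipitated with antibodies against acetylated lysine 27 of histone H3 (H3K27ac, antibody ab4729, 2 libraries) or monomethylated lysine 4 (H3K4me1, antibody ab8895, 2 libraries). The labels name no treatment and no genotype beyond the line itself, which was grown in DMEM with serum, and 1 input library is not analysed here. No label says whether replicates came from separate cultures, so their spread may be technical. The lists hold positions and names of peaks and no heights, and read depth is unknown for every library. Whether a missing peak means little of the mark or too few reads thus cannot be told from them. The label of the line was not checked against marker genes, as no gene positions of hg19 were used other than the approximate ones below.

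H3K27ac is found at active promoters and active enhancers. H3K4me1 marks enhancers whether or not they are active, and also promoter flanks, and it is often low where promoter chromatin carries trimethylated lysine 4 instead, a mark that was not measured. WNT7B encodes a secreted WNT ligand, which signals through Frizzled receptors on neighbouring cells and has been studied as an androgen receptor target in prostate cancer. MIRLET7BHG is a long non-coding RNA gene and host of let-7 microRNAs, which repress growth-promoting messenger RNAs such as those of RAS genes and HMGA2. PRR34 is annotated as a long non-coding RNA gene by RefSeq and its role is not well known.

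Approximate hg19 positions of the 3 genes come from the rule that chose the locus. WNT7B lies from about 46.316 to 46.373 Mb on the minus strand, so that its start is at the higher end. PRR34 lies at about 46.45 Mb, and MIRLET7BHG from about 46.45 to 46.51 Mb. In the RefSeq table of the other build, GRCh38.p14, 16 genes lie between WNT7B and PPARA, in an order that runs through LINC00899, PRR34, PRR34-AS1, LINC02939 and MIRLET7BHG. Inside MIRLET7BHG it lists 4 microRNA genes, namely MIR3619, MIRLET7A3, MIR4763 and MIRLET7B. In that table MIRLET7BHG begins after PRR34-AS1 and LINC02939, whereas the rule starts it at about the position of PRR34. Part or all of the stretch here called PRR34 and the host gene may therefore lie upstream of the RefSeq model of MIRLET7BHG. No coordinate was carried from that build to hg19, so peaks are placed by hg19 position and only roughly by gene.

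The let-7 products of the host gene are shown because they share their seed, bases 2 to 8 from the 5′ end, which is printed in capitals (RefSeq, GRCh38.p14). The 5p arms have the seed GAGGUAG, which 11 of 2370 mature human microRNAs in the table carry, and the 3p arms share UAUACAA, which 4 carry.
hsa-let-7a-5p: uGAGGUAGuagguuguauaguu
hsa-let-7b-5p: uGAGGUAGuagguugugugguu
hsa-let-7a-3p: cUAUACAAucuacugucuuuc
hsa-let-7b-3p: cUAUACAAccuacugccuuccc
Counted from the 5′ end, let-7b-5p differs from let-7a-5p by A17G and A19G, 2 of 22 positions, both outside the seed. The products of MIR3619 and MIR4763 have other seeds, CAGCAGG and GGACCAU, and GCCUGCC and GGCAGGG.

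Promoter sequence, 250 bases before to 50 after the start, was at hand for MIRLET7BHG and for PRR34-AS1, whose annotated model overlaps PRR34. They are printed for their content of CG (both strands read alike), set in capitals. The rule puts PRR34 at about 46.45 Mb, near the left end of the widest H3K27ac region. At that precision PRR34 may lie inside the region or just before it. Gene order places the host gene after PRR34. Both promoters are on the plus strand of GRCh38.p14.
MIRLET7BHG: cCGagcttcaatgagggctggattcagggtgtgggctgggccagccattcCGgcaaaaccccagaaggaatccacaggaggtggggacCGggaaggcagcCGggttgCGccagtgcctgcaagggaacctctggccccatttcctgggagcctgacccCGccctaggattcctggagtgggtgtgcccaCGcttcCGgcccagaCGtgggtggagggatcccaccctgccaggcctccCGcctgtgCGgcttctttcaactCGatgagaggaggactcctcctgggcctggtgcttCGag
PRR34-AS1: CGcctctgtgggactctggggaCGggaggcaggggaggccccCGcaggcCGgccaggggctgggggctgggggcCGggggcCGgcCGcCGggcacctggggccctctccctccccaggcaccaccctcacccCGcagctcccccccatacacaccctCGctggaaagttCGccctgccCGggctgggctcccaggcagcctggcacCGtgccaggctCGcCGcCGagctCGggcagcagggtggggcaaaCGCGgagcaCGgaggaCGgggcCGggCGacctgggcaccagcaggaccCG
The PRR34-AS1 promoter held 24 CG and 78% G or C, and the MIRLET7BHG promoter 13 CG and 65.3%. Over 35116 promoters of the table the medians were 14 CG and 58.7%, and 96.0% held at least 1 CG. At least as many CG as in PRR34-AS1 were found in 33.9% of promoters and as many as in MIRLET7BHG in 51.7%, so the host gene promoter lies near the median in CG. At least as much G or C as in PRR34-AS1 was found in 4.93% of promoters and as much as in MIRLET7BHG in 32.2%, so PRR34-AS1 is at the high end in G or C. Where these starts fall among the hg19 peaks was not determined.

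H3K27ac covered a large part of the locus and H3K4me1 little of it. H3K27ac peaks took up 56.1 kb in replicate 1 and 55.1 kb in replicate 2, or 22.2 ± 0.304% of the stretch (mean ± SD, n = 2). H3K4me1 peaks took up 5.33 kb in replicate 1 and 11.5 kb in replicate 2, or 3.36 ± 1.74% (n = 2). The H3K27ac libraries nearly coincide, whereas H3K4me1 replicate 2 covered more of the locus than replicate 1. It also covered more over all chromosomes analysed, 112 Mb against 72.4 Mb. At the locus, neither H3K4me1 library reached either H3K27ac library. In the 4 pairings of libraries the ratio of H3K4me1 to H3K27ac length lay between 0.0950 and 0.209 here, and between 0.990 and 1.65 over all chromosomes analysed.

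At the locus, median and largest peak widths set the marks apart as well. H3K27ac peaks ranged from 239 to 30220 bp in replicate 1 (median 719 bp) and from 201 to 21960 bp in replicate 2 (median 1210 bp). H3K4me1 peaks ranged from 231 to 1559 bp in replicate 1 (median 353 bp) and from 232 to 1681 bp in replicate 2 (median 407.5 bp). Peaks of 5 kb or more, 2 in H3K27ac replicate 1 and 3 in replicate 2, held 66.3 and 67.9% of the H3K27ac length. Neither H3K4me1 library had a peak of that width at the locus. Over the whole lists, median width was 902 bp in H3K27ac replicate 1 and 623 bp in replicate 2. For H3K4me1 it was 448 bp in replicate 1 and 650 bp in replicate 2, so that the medians of the marks overlap there. At the locus both H3K27ac medians were above both H3K4me1 medians.

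**Figure D1:**
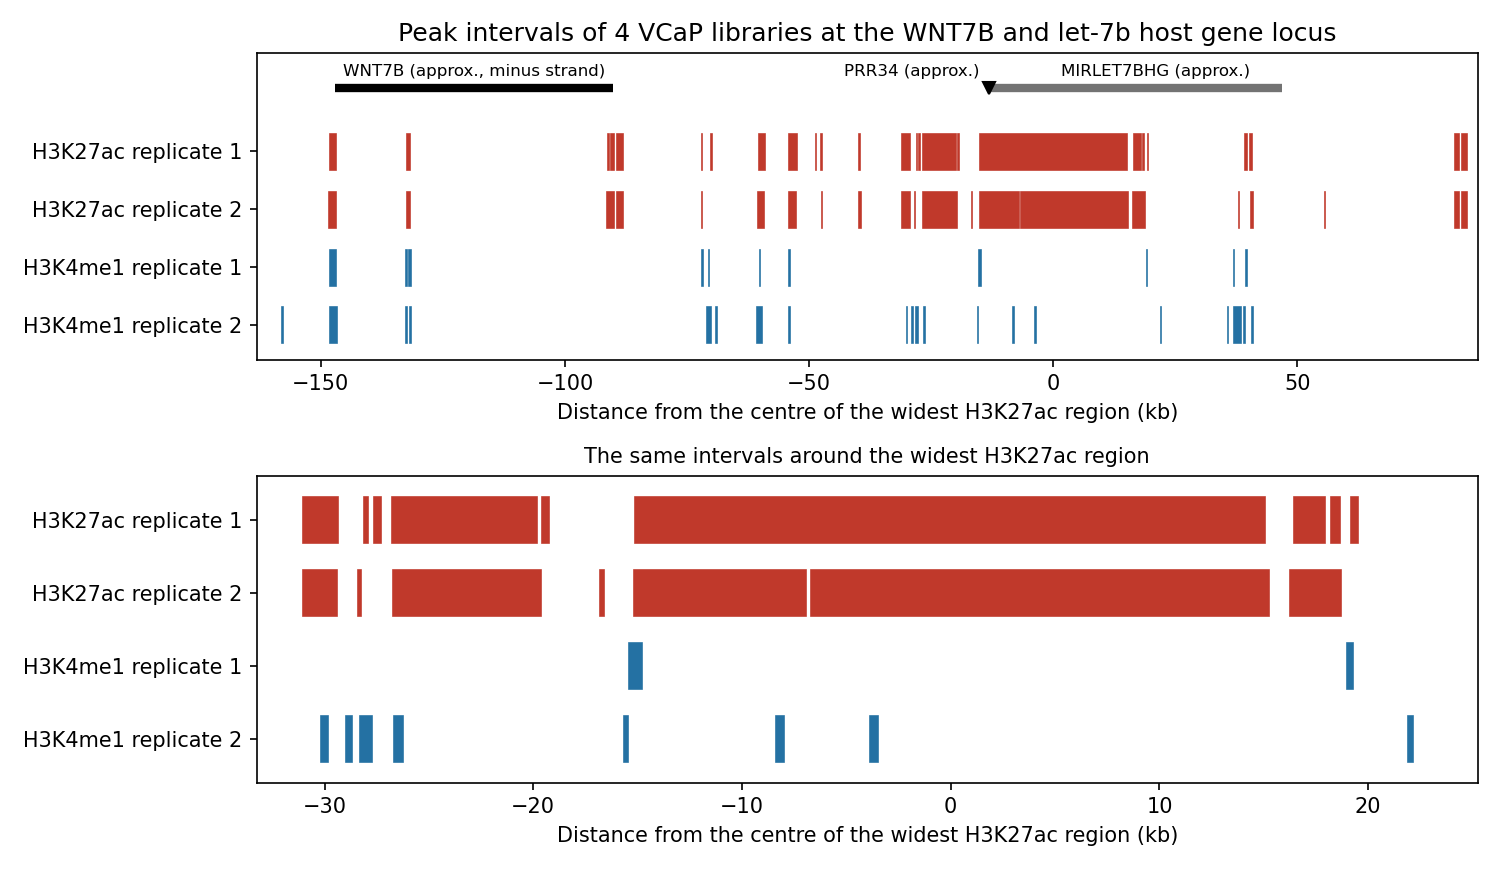
Peak intervals of the 4 libraries, with distance in kb from the centre of the widest H3K27ac region on the horizontal axis and 1 row per library. Bars on top give approximate gene positions. The lower panel enlarges the middle, where the H3K27ac rows are nearly filled and the H3K4me1 rows hold a few short intervals, mostly of replicate 2.

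Reading from the WNT7B end, the first site with H3K27ac carried peaks of all 4 libraries. It lies at about 46.316 Mb, near the downstream end of WNT7B. The replicated H3K27ac region there, meaning a merged region with a peak of each library, spans 46314593 to 46316276 (1684 bp). H3K4me1 covered 92.6% of it in replicate 1 and 96.4% in replicate 2, with merged peaks from 46314654 to 46316334, the highest share of the 16 replicated H3K27ac regions of the locus. The interval of H3K4me1 alone that lies before it, at 46304993 to 46305329 (337 bp), was found in replicate 2 only and is 9263 bp from the nearest H3K27ac peak.

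Inside WNT7B, a second site had H3K27ac that overlapped a pair of H3K4me1 peaks in both H3K4me1 libraries. H3K27ac spans 46330468 to 46331434 (967 bp), and H3K4me1 covered 64.0% of it in replicate 1 and 70.7% in replicate 2. The H3K4me1 peaks of replicate 1 lie at 46330275 to 46330627 and 46330976 to 46331601, with 348 bp between them, and those of replicate 2 at 46330239 to 46330756 and 46331040 to 46331620, with 283 bp between them. H3K27ac is continuous over that interruption in both of its libraries. From there to the start of WNT7B no list holds any interval for 39.8 kb (46331621 to 46371429), the longest empty stretch of the locus.

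The start of WNT7B, at about 46.373 Mb, had H3K27ac and no H3K4me1. In replicate 1, H3K27ac peaks lie at 46371602 to 46372022 (421 bp), 46372260 to 46373051 (792 bp) and 46373471 to 46375034 (1564 bp). In replicate 2, they lie at 46371430 to 46373056 (1627 bp) and 46373554 to 46374974 (1421 bp). Both libraries leave an interruption at the approximate start, 419 bp long in replicate 1 and 497 bp in replicate 2. No H3K4me1 peak of either library lies between 46331621 and 46391026, a stretch of 59.4 kb that is the longest without H3K4me1 at the locus.

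Upstream of WNT7B, before position 46432000, peaks of both marks were scattered and at most 1838 bp wide. H3K4me1 of both libraries lay on the H3K27ac regions at 46402473 to 46403979 (1507 bp) and 46408719 to 46410564 (1846 bp). The H3K4me1 peaks there, merged over libraries, span 46402280 to 46403361 and 46408837 to 46409214. They covered 23.1% (replicate 1) and 59.0% (replicate 2) of the former region, and 19.4 and 13.7% of the latter. Another replicated H3K4me1 region, at 46392014 to 46393040 (1027 bp), met only an H3K27ac peak of replicate 1 (46392859 to 46393208). The H3K27ac region at 46390938 to 46391243 (306 bp) met H3K4me1 of replicate 1 only (46391027 to 46391257). H3K27ac regions at 46415352 to 46415818 and 46423060 to 46423640 met no H3K4me1 peak, and an H3K4me1 peak of replicate 2 at 46393842 to 46394281 met no H3K27ac.

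The main block of H3K27ac begins at 46432000 and ends at 46482588. Joining H3K27ac peaks of both libraries that lie up to 5 kb apart gives this single block of 50.6 kb, of which H3K27ac fills 83.6% in replicate 1 and 83.1% in replicate 2. It holds 75.4 and 76.3% of all H3K27ac length of the locus. H3K4me1 fills 1.93% of the block in replicate 1 and 5.62% in replicate 2, with 2 and 7 peaks. The block was drawn from H3K27ac peaks, so its high H3K27ac share follows in part from that choice. H3K4me1 filled a small part of it in each library.

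Within the block, the second widest H3K27ac region spans 46436263 to 46443468 (7206 bp). It is 1 peak in each library, of 6975 bp in replicate 1 and 7154 bp in replicate 2. H3K4me1 replicate 1 had no peak on it, and replicate 2 had 1 of 489 bp near its left end (46436374 to 46436862). Before it, the region at 46432000 to 46433712 met a peak of H3K4me1 replicate 2 only (46432888 to 46433242), and 2 more peaks of replicate 2 follow at 46434060 to 46434418 and 46434748 to 46435339. From the start of the block to the end of the second widest region, H3K4me1 was thus seen in replicate 2 only.

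The widest H3K27ac region spans 46447846 to 46478319 (30474 bp), over the approximate position of PRR34 and into that of MIRLET7BHG by the rule. Whether it reaches the RefSeq model of the host gene or lies upstream of it was not determined. In replicate 1 it is 1 peak of 30220 bp (46447903 to 46478122). In replicate 2 it is 2 peaks, of 8291 bp (46447846 to 46456136) and 21960 bp (46456360 to 46478319), with 223 bp between them. The replicate 1 peak and the larger replicate 2 peak are each the widest of their own lists of 54763 and 64845 peaks. The left ends of the region differ by 57 bp between libraries and the right ends by 197 bp.

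H3K4me1 on the widest region came from different places in its libraries. Replicate 1 had 1 peak, at 46447642 to 46448267, which crosses the left end and covers 422 bp (1.38%) of the region. Replicate 2 had a peak just outside the left end, at 46447391 to 46447622, which ends 223 bp before the region. Both libraries thus have a peak at the left end, but these do not overlap. Replicate 2 also had 2 peaks inside, at 46454661 to 46455070 (410 bp) and 46459175 to 46459579 (405 bp), which cover 815 bp (2.67%), and replicate 1 had neither. More than 1 kb from its ends, the region held 0 bp of H3K4me1 in replicate 1 and 815 bp in replicate 2.

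To the right of the widest region, the block held H3K4me1 of replicate 1 only, a peak at 46482027 to 46482375 (349 bp) that overlaps H3K27ac of replicate 1. The H3K27ac region next to the widest one, at 46479302 to 46481797 (2496 bp), met no H3K4me1 peak of either library. The nearest H3K4me1 peaks were that of replicate 1 and, past the block, a peak of replicate 2 at 46484919 to 46485211. From 46459580 to 46482026, 22.4 kb, neither library has an H3K4me1 peak, while H3K27ac replicates 1 and 2 cover 20.6 and 21.2 kb of it. This differs from the empty stretch inside WNT7B, which lacks both marks.

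Towards the end of MIRLET7BHG a small group of peaks of both marks was seen. It includes the widest H3K4me1 peak of this side, 46499890 to 46501464 in replicate 2 (1575 bp), which overlaps a replicate 1 peak of 269 bp. H3K27ac has a replicated region at 46503169 to 46503992 (824 bp), met by H3K4me1 replicate 2 only (46503610 to 46503935). Another 3 H3K4me1 peaks of the group, at 46498611 to 46498884 and 46502067 to 46502329 in replicate 2 and 46502459 to 46502697 in replicate 1, had no counterpart in the other library. From 46503993 to 46518531 no list holds an interval, and the approximate end of the host gene, about 46.51 Mb, lies in this stretch of 14.5 kb. Beyond it came an H3K27ac peak of replicate 2 (46518532 to 46518829) and replicated H3K27ac regions at 46545267 to 46546279 and 46546666 to 46547906, with no H3K4me1 in either library.

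By segment, cut at the positions of the rule, H3K27ac was highest in both libraries from PRR34 to the end of MIRLET7BHG, and H3K4me1 was not. Over the approximate WNT7B gene, H3K27ac covered 4.04% in replicate 1 and 4.74% in replicate 2, and H3K4me1 2.14 and 2.51%. Between WNT7B and PRR34 the values were 23.9 and 22.0% for H3K27ac and 2.51 and 6.27% for H3K4me1. From PRR34 to the end of MIRLET7BHG they were 53.1 and 52.5% for H3K27ac and 1.43 and 5.91% for H3K4me1. Most H3K27ac of this segment lay in the widest region, at its left. Further right, no H3K27ac peak lay from 46482589 to 46502257 in replicate 1 or from 46481798 to 46500910 in replicate 2. In the 16 kb before WNT7B the marks were alike, with 8.46 and 8.80% for H3K27ac and 8.24 and 10.5% for H3K4me1, whose ranges overlap. In every other segment, taken as a whole, both H3K27ac libraries lay above both H3K4me1 libraries.

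**Figure D2:**
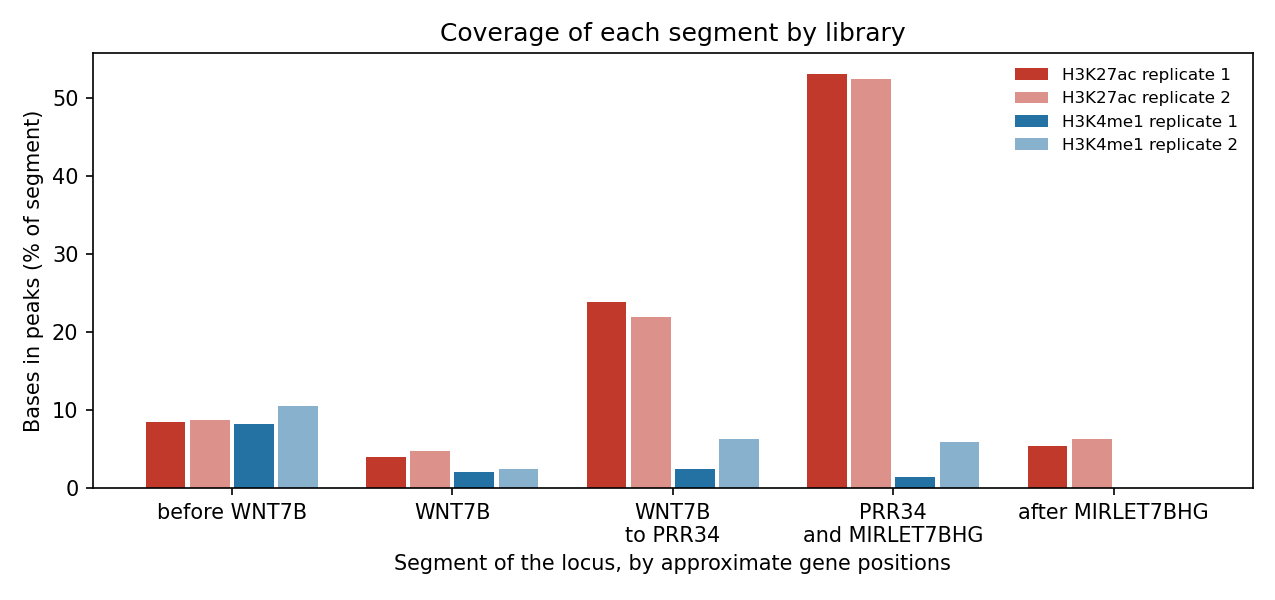
Share of each segment covered by peaks, in percent, with 1 bar per library and segments cut at the approximate gene positions. H3K27ac reaches 53.1 and 52.5% from PRR34 to the end of MIRLET7BHG as the rule places them, where H3K4me1 is at 1.43 and 5.91%. Part of this segment may lie upstream of the RefSeq model of the host gene. Most of its H3K27ac lies in the widest region, at its left. Among whole segments the marks are alike only before WNT7B, which depends on where the cuts fall.

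A smaller share of H3K27ac regions met H3K4me1 at the locus than over the series, and few met H3K4me1 seen in both libraries. Of 16 replicated regions, 4 overlapped a replicated H3K4me1 region by at least 1 bp, or 25%, and over the whole series 73.5% did. The exact 95% binomial interval, 7.27 to 52.4%, covers counting error only. These regions are neighbours in a locus chosen with its sparse H3K4me1 known, so the interval is no test against the series. With an H3K4me1 peak of either library enough, 9 of 16 overlapped H3K4me1, beside 83.3% over the whole series. With H3K4me1 replicate 1 alone 6 of 16 did (73.9% over the series), and with replicate 2 alone 8 of 16 (80.9%). The 4 regions with replicated H3K4me1 all lie on the WNT7B side of the main block. The 7 regions without any H3K4me1 are those at the WNT7B start, at 46415352 and 46423060, next to the right end of the widest region, and past the host gene.

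H3K4me1 peaks, read from the other side, mostly lay on or beside H3K27ac. Of the H3K4me1 peaks of the locus, 9 of 11 in replicate 1 and 14 of 20 in replicate 2 overlapped an H3K27ac peak of either library, beside 48.4 and 43.7% over the whole series. Merging the H3K4me1 peaks gives 24 regions, of which 7 lie wholly inside H3K27ac of either library, 11 partly and 6 outside. Of the 7 replicated H3K4me1 regions, 5 overlapped a replicated H3K27ac region, beside 47.1% over the series, and 7 overlapped an H3K27ac peak of either library, beside 55.1%. All 6 regions outside H3K27ac came from H3K4me1 replicate 2 alone, and 5 of these lie within 2330 bp of H3K27ac. A locus dense in H3K27ac offers more bases to overlap than most, so these shares are not comparable with the series at equal H3K27ac.

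H3K4me1 peaks of 1 library only made up a large share. In replicate 1, 4 of 11 peaks had no overlap in replicate 2, beside 11.7% over the whole series. In replicate 2, 13 of 20 had none in replicate 1, beside 31.3%. Such peaks were 231 to 626 bp wide in replicate 1 and 232 to 592 bp in replicate 2. Of the 24 merged H3K4me1 regions, 17 were seen in 1 library and 7 in both. Among H3K4me1 peaks under 500 bp, a limit set after seeing the data, 3 of 8 in replicate 1 and 12 of 13 in replicate 2 were seen once, and over the series 19.7 and 59.1% of peaks under that width were. Bases covered in both H3K4me1 libraries were 28.2% of those covered in either, against 51.8% over the series.

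H3K27ac recurred better by length than by number. In replicate 1, 7 of 25 H3K27ac peaks had no overlap in replicate 2 (12.1% over the series), and in replicate 2, 4 of 21 had none in replicate 1 (14.0%). These 11 peaks were 201 to 626 bp wide, and 6 of them lie in the main block. Bases covered in both H3K27ac libraries were 88.2% of those covered in either, against 76.9% over the series.

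Among windows of the same size, the locus was near the top for H3K27ac and in the middle for H3K4me1. Of 11761 other windows of 250 kb, 99.86% had less H3K27ac than its 22.2%, with a median of 1.26%. The locus was placed with its peaks known. The other windows lie on a fixed grid, which can split a wide block, and include windows without any H3K27ac. For H3K4me1, 63.1% of windows had less than its 3.36%, with a median of 2.24%. The 16 windows with at least as much H3K27ac had 8.19 to 40.2% H3K4me1. Their ratios of H3K4me1 to H3K27ac lay from 0.343 to 1.45, against 0.151 at the locus. Among 256 other windows with at least 11.1% H3K27ac, 0 had a lower ratio and 1 had less H3K4me1, and their median ratio was 0.888. That limit was set from the H3K27ac value of the locus itself, so the comparison is not independent of its choice. With little H3K27ac in a window the ratio can fall lower, and 191 of the 8874 other windows with any H3K27ac were below the locus.

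**Figure D3:**
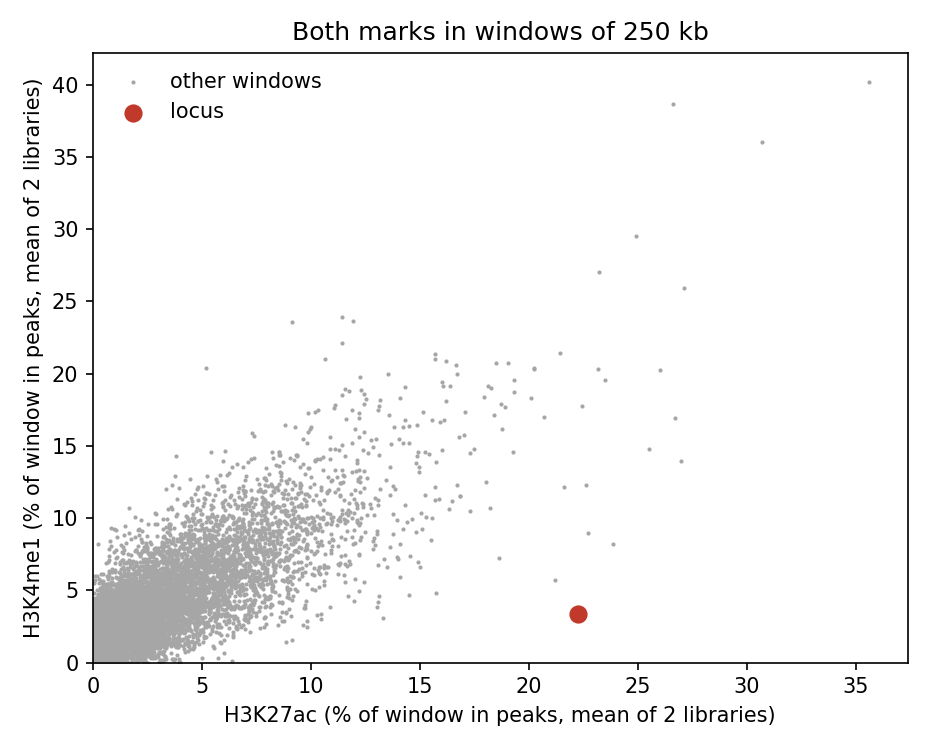
Each point is a window of 250 kb, with the share covered by H3K27ac peaks on the horizontal and by H3K4me1 peaks on the vertical axis, in percent and as the mean of 2 libraries. The locus (22.2 and 3.36%) lies below all 16 windows with at least as much H3K27ac.

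The adjoining stretches had less H3K27ac than the locus, though more than the median window (1.26%). The 250 kb before the locus had 1.78 and 1.96% H3K27ac in replicates 1 and 2, and the 250 kb after it 3.86 and 4.01%. H3K4me1 was at 1.02 and 1.59% before and 1.05 and 1.86% after, less than in the median window (2.24%). H3K4me1 at the locus was thus above that of both adjoining stretches in each library, by less than H3K27ac was. It was not above that of the next 250 kb on the right (46800001 to 47050000), which had 4.12 and 5.49% H3K4me1 and 3.64 and 3.01% H3K27ac. The outermost members are an H3K4me1 replicate 2 peak from 46304993 and an H3K27ac replicate 1 peak that ends at 46547906. Just outside, all 4 lists have a peak 6.38 to 6.49 kb before the left edge, and the nearest after the right edge is an H3K4me1 replicate 2 peak 8.42 kb away.

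The widest region had less H3K4me1 than the next 4 in width. It is 1.16 times as wide as the next widest, on chromosome 7 from 27222617 to 27248913, and 25.0 times the median of 1217 bp over 47128 replicated regions. H3K4me1 covered 5.35 and 10.2% of that chromosome 7 region in replicates 1 and 2. The third widest lies on chromosome 19 from 13122405 to 13146380, with 38.4 and 54.7%. The fourth is on chromosome 20 (56263764 to 56287511), with 67.5 and 72.2%, and the fifth on chromosome 15 (99328171 to 99351410), with 84.4 and 94.7%. In the 10 kb on either side, added up, the widest region had 553 and 525 bp of H3K4me1, and the other 4 had 2993 to 10634 bp.

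Among all 101 replicated H3K27ac regions of 10 kb or more, the widest one ranked second from the lowest in H3K4me1. Its mean over libraries was 2.03%, the lowest was 1.63%, and the median was 54.2% (quartiles 29.6 and 75.0%). The second widest region of the locus, of 7206 bp, had a mean of 3.39%. Of 1152 regions of 5 kb or more, 52 had less H3K4me1 than it and 37 had less than the widest. Both wide regions of the locus are thus at the low end of their size class, though regions with still less exist.

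**Figure D4:**
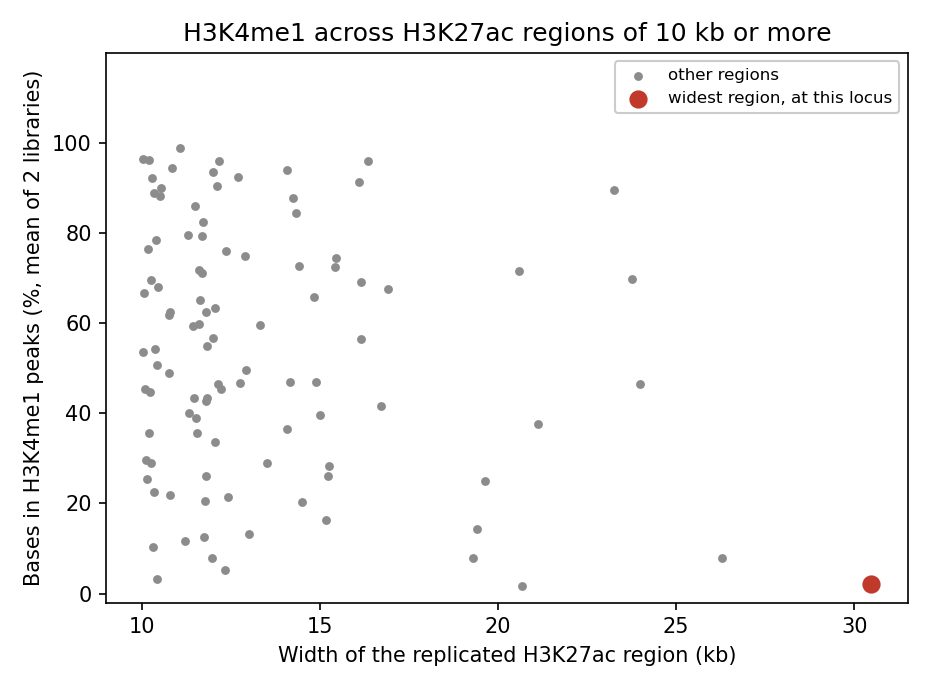
Replicated H3K27ac regions of 10 kb or more, with width in kb on the horizontal axis and the share of bases in H3K4me1 peaks, in percent and as the mean of 2 libraries, on the vertical axis. The region at this locus is the widest (30.5 kb) and has 2.03% H3K4me1, while the 101 regions have a median of 54.2%.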

How the data were processed

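For each immunoprecipitated library the authors deposited 1 list of peaks, which has 4 columns (chromosome, start, end, name) and none of height or significance. Build hg19 (GRCh37) and the tools MACS2 2.1.0, Bowtie 1.1.2, Trimmomatic 0.33 and bcl2fastq 2.17 are named in the submitters' processing notes. What each tool did, and the threshold and control of peak calling, is not given in the sources used here. Intervals on the autosomes and chromosome X were analysed with Python 3.11.15 and numpy 2.4.6, and interval functions were tested on simulated data. Positions are printed counted from 1. Overlap means at least 1 bp. A replicated region is a merged region with a peak of each library of a mark. Windows tile each chromosome between its outermost peaks. The locus, members and lists were chosen with earlier results of these data known. By the naming rule, intervals of 5 kb or more, every H3K4me1 interval and the 5 widest H3K27ac regions are named; other intervals named were chosen after their values were seen. Lists of WNT genes, let-7 hosts and cell type markers needed start sites in hg19 and were not used. All 3 member genes were found by symbol in RefSeq GRCh38.p14; of these, MIRLET7BHG matched the promoter table.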

Additional observations from a re-analysis of the deposited data

How the results depend on the processing

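No paired analysis was possible because no result comes from a test. The ratio of H3K4me1 to H3K27ac length was 0.0950 between replicates numbered 1 and 0.209 between those numbered 2. Over 11 results and 84 alternatives, 57 values stayed within the spread between libraries, the counting interval or, for a count, 1.5 times, and 27 moved further. The cause was not tested unless the alternative itself sets it. With 50 kb more or less on each side, H3K27ac covered 16.6 or 33.1%, since the main block lies inside. Bases in both libraries, or in either, gave 20.8 or 23.6% for H3K27ac, 1.48 or 5.25% for H3K4me1, ratios of 0.0710 or 0.222, and 0 or 4.06% H3K4me1 on the widest region. Equal numbers of widest peaks, which drop short H3K4me1 peaks, gave a ratio of 0.0741, 0.692% H3K4me1 on the widest region, 7.14% of H3K27ac regions with H3K4me1, 3.5 H3K4me1 peaks per library, and percentiles of 99.87 (H3K27ac), 55.2 (H3K4me1) and 6.49 (ratio). Merged regions of either library gave 55.6% of H3K27ac regions with H3K4me1. Windows shifted by 125 kb gave percentiles of 99.89 (H3K27ac) and 2.35 (ratio), and windows with H3K27ac in each library 99.81 (H3K27ac) and 49.6 (H3K4me1). Leaving out a library gave a widest region of 21960 (without H3K27ac replicate 1) to 30220 bp, H3K4me1 on it from 0.922 to 2.67%, an H3K27ac percentile of 99.86 to 99.87 and a ratio percentile of 2.06 to 2.88. The low value of 0.922% is that of the larger replicate 2 peak alone. After joining peaks up to 232 bp apart and dropping narrower ones in every list, each result recomputed stayed within its spread. Depth is unknown, so the absence of short H3K4me1 peaks from a list has no stated precision.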

Other observations

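Some other wide H3K27ac regions were also nearly free of H3K4me1. Of the 101 replicated regions of 10 kb or more, 3 had under 5% of their bases in H3K4me1 peaks as the mean of both libraries. Besides the widest region of the WNT7B locus, these lie on chromosome 12 from 115101281 to 115121945 (20665 bp, 0% in replicate 1 and 3.27% in replicate 2) and on chromosome 13 from 45142689 to 45153110 (10422 bp, 2.87 and 3.42%). A region on chromosome 15 from 96873113 to 96885442 followed with 5.02 and 5.51%. On chromosome 7, the regions from 27201407 to 27220698 and from 27222617 to 27248913 lie next to each other and had 6.02 and 9.99%, and 5.35 and 10.2%. No gene was assigned to these regions, and the values were read after ranking all regions of that size.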
